A study of Mus musculus with 14 samples.

Results

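The promoters described here were those whose methylation differed most between single-cell clones of the mouse mammary cancer line 4T1, outside the olfactory (Olfr) and vomeronasal (Vmn1r, Vmn2r) receptor families. A promoter was taken when its level ranged over at least 0.2 among 6 clones and its mean over them lay between 0.2 and 0.8. Of 20583 distinct promoter rows outside those families, 1640 (7.97%) met both thresholds, and these belonged to 1606 genes. Among the 9279 rows with a mean in that band, the share was 17.7%. Of the 1382 receptor rows left out, 466 (33.7%) would have passed. The name covers the olfactory and vomeronasal families only: taste, trace amine, formyl peptide, killer cell lectin-like and chemokine receptors all had members.

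Genomic DNA was bisulfite converted and sequenced genome-wide, which reads the methylation level of a region as the share of cytosines left unconverted, from 0 to 1. Each clone was grown from 1 sorted cell, so a line stands for 1 clone. Out of 23 clones tested as a pool for entry into blood vessels, E and T carried the label intravasating, and I, K, L and P the label non-intravasating. The 14 libraries came from 2 rounds of each clone and of the parental line, which was not analysed here. The deposited table gave 1 level per clone, with no separate columns for the rounds, and no treatment or genotype told the clones apart. No value of these data gives the spread within a clone, so the spread below is between clones. The depth behind each level is unknown.

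Promoter methylation is the addition of a methyl group to cytosines that stand before a guanine (CpG). Promoters rich in CpG, the CpG islands of widely used genes, are usually unmethylated, and methylation over them goes with silencing. CpG-poor promoters of tissue-restricted genes are often partly or fully methylated in cells that do not use the gene, and tumour lines commonly lose methylation at such sequences. In bulk DNA, a level between 0 and 1 cannot tell a share of cells from a share of alleles within each cell.

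The stretch around the gene start shows how unlike the members were in sequence. The 6 RefSeq promoters printed here were chosen because the clone differences described below turn on them and because they run from CpG-rich to CpG-free. Each is the 300-base window from 250 bases before to 50 bases after the gene start, on the gene's strand, in GRCm38.p6, with every CpG in capitals. The deposited table gives no promoter boundaries. At Lce3f the measured region must reach beyond the window, which holds no CpG although levels were given, and the others may differ too. Vgll3 and Nr4a1 are CpG-rich, with 19 and 35 CpG. Rab25 has 9, Klri1 4, Sele 3 and Lce3f none, counted as 0.
Nr4a1, chr15:101266596-101266895, plus strand: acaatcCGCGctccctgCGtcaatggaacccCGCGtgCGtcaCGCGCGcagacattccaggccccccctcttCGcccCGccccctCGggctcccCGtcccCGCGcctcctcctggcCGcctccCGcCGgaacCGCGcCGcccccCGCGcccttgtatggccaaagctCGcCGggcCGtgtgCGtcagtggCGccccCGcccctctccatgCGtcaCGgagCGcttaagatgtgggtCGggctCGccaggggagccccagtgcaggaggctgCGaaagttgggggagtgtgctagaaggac
Vgll3, chr16:65814939-65815238, plus strand: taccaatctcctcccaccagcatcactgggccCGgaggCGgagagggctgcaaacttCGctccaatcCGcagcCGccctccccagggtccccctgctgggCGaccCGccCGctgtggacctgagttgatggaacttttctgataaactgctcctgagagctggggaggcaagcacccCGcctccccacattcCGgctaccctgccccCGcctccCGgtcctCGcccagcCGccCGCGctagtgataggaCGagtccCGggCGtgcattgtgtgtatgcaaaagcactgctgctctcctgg
Rab25, chr3:88548230-88548529, minus strand: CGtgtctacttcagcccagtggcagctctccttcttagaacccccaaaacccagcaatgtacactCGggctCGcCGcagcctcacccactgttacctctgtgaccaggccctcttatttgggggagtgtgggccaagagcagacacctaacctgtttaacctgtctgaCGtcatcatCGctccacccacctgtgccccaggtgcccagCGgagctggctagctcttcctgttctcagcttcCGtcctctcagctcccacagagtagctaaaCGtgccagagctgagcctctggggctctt
Klri1, chr6:129717083-129717382, minus strand: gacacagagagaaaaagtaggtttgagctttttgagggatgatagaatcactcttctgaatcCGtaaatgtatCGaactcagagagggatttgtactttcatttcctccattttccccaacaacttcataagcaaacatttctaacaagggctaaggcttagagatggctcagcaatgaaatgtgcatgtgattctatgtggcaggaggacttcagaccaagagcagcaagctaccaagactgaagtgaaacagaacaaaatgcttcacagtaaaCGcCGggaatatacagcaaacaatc
Sele, chr1:164047984-164048283, plus strand: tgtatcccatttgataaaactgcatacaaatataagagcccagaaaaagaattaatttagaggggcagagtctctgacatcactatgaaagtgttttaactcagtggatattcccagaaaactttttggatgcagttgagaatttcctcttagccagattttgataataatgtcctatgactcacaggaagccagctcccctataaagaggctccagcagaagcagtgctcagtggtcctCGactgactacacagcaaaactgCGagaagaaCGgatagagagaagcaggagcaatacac
Lce3f, chr3:92991967-92992266, plus strand: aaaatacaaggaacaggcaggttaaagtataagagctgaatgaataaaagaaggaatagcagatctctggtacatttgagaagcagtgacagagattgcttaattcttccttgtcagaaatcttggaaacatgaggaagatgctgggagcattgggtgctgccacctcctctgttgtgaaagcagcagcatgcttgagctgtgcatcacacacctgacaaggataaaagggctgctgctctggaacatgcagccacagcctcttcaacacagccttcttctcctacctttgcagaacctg

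MicroRNA genes were the largest group of members with known mature products. Of 67 microRNA member genes, 61 were found in the RefSeq sequence table, with 101 mature sequences between them. Those shown have their seed, bases 2 to 8 of the mature microRNA, in capitals. The pair miR-200c and miR-141 are made from genes next to each other on chromosome 6. The 4 others from chromosome X lie close together in a cluster known from testis, and miR-743a and miR-743b share a seed. The last 5 are from the miR-344 cluster on chromosome 7 and share 1 seed.
miR-200c-3p: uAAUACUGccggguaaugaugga
miR-141-3p: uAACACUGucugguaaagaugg
miR-465a-5p: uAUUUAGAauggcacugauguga
miR-881-3p: aACUGUGUcuuuucugaauaga
miR-743a-3p: gAAAGACAccaagcugaguaga
miR-743b-3p: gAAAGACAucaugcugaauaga
miR-344-5p: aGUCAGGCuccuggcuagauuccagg
miR-344b-5p: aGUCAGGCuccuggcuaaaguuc
miR-344c-5p: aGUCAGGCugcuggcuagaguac
miR-344d-3-5p: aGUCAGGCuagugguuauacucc
miR-344g-5p: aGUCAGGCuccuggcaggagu

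Clones L and T were the low clones of these promoters. The mean level over the 1640 members was 0.439 in L and 0.456 in T, against 0.529 to 0.547 in E, I, K and P. Clone L was the lowest of the 6 at 788 members (48.0%) and clone T at 461 (28.1%), while each of the other 4 clones was lowest at 79 to 144. Clone I was most often the highest, at 444 members. L is labelled non-intravasating and T intravasating, so the low clones came from both groups. The same order held over all 21965 promoters, where the means were 0.369 in L, 0.377 in T and 0.402 to 0.412 in the other 4, with L lowest at 36.0% and T at 24.6%. The members had been chosen by their range over these clones, and these counts describe them without a test.

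**Figure D1:**
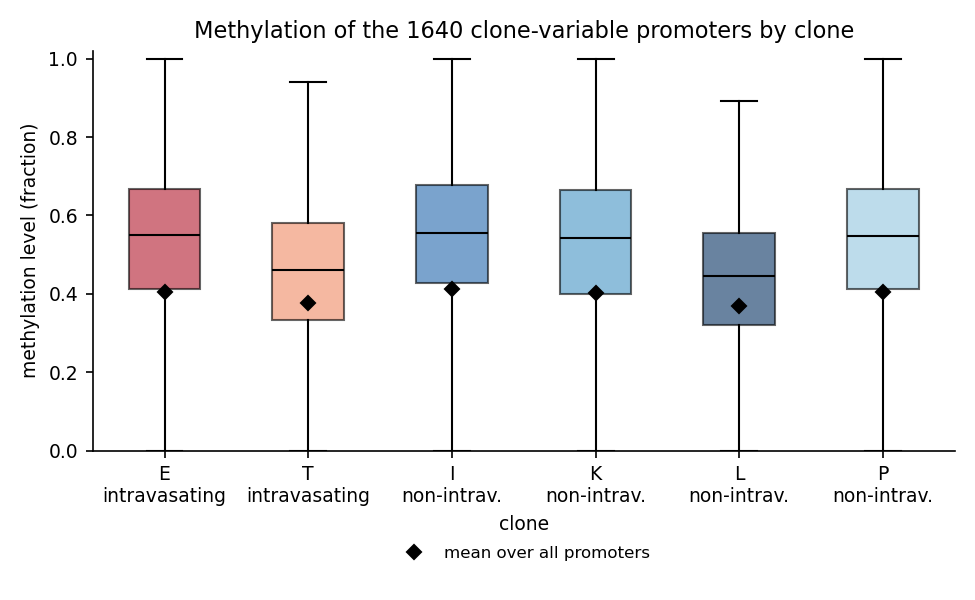
Methylation level (fraction, y axis) of the 1640 members in each clone, with boxes from the first to the third quartile, a line at the median and whiskers to the lowest and highest member. Black diamonds give each clone's mean over all promoters, and the medians of L and T sit below those of the other 4 clones, with overlapping boxes.

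Most members had a moderate spread. The median range was 0.245, 370 members ranged over at least 0.3 and 52 over at least 0.5. A level of exactly 0 or 1 in some clone was present at 19 members. Closest to the range threshold from inside were Retnla, Mog and Gp1ba at 0.2, and closest from outside were Il25, 1700027A15Rik and Arhgap9, also 0.2 when rounded. Near the lower bound of the mean, Tas2r123, Trim30d and Klk1b11 had means of 0.2003, 0.2004 and 0.2008, and near the upper bound Psg19, 8030411F24Rik and Gpr143 had means of 0.7996, 0.7993 and 0.7991. A further 132 rows outside the receptor families had the range but not the mean: 103 had a mean under 0.2 and 29 over 0.8.

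To say which clones differed, the 6 levels of a member were put in order and split at the widest gap, and the side with fewer clones was named. A gap of at least 0.1 was present at 1016 members (62.0%). One clone stood alone at 721 of these, 442 times low and 279 times high. That order turned after each clone was centred on its median over all promoters, with 272 low and 295 high. Clone L alone low was the commonest split, at 275 members, followed by T alone low at 118, I alone high at 80 and L with T low at 69. At a gap of at least 0.2, T alone low (21) was found at more members than L alone low (19). Together L, T or both were the low side at 462 of the 1016 (45.5%). The share was 47.1% among all 1523 promoters outside the receptor families with such a gap, which include the 1016 members. With the clones centred, L stood alone low at 103 members and alone high at 95, T alone low at 69 and I alone high at 38. Without clone L the rule took 1013 promoters, 1003 of them among the 1640, and T then stood alone low at 227. Without T, L stood alone low at 424.

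**Figure D2:**
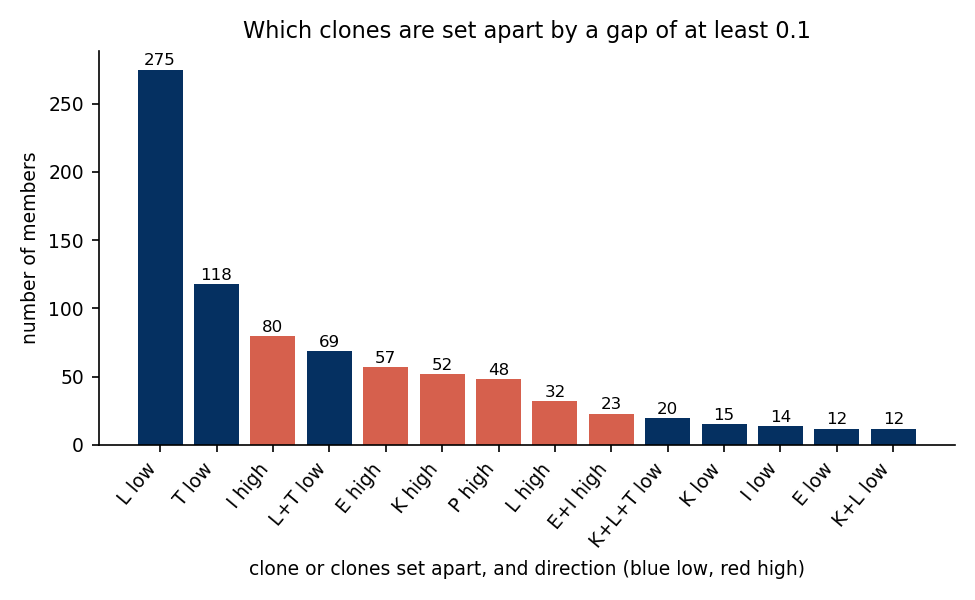
Number of members (y axis) for the 14 commonest splits of the 6 clones at a gap of at least 0.1 in methylation level, each named by the clone or clones set apart (x axis). Blue bars are splits with the named clones low and red bars with them high, and L alone low, with 275 members, is the tallest.

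Between pairs of clones, E and I differed least over the members, by 0.0891 on average in level, and I and L most, by 0.152. The intravasating pair E and T differed by 0.119 and ranked 8 of the 15 pairs, so the clones sharing the label were not the closest. K and P, both non-intravasating, were the second closest pair at 0.0940.

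At the microRNA pair Mir200c and Mir141, whose products hold epithelial cells in their state by repressing the Zeb transcription factors, clone L had almost no methylation. Mir200c stood at 0.522 in E and 0.52 in T, and 0.286 in I, 0.665 in K, 0.0409 in L and 0.683 in P. Mir141 stood at 0.508 in E and 0.5 in T, and 0.264 in I, 0.621 in K, 0.0423 in L and 0.613 in P. Clone L was lowest at both, I was the next lowest, and the other 4 clones, from both groups, were at or above 0.5. The deposited rows may cover overlapping stretches, since the genes are neighbours on chromosome 6.

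Other genes of epithelial and adhesion function were also low in clone L alone. Rab25, a small GTPase of epithelial recycling endosomes with 9 CpG in its window, stood at 0.56 in E and 0.576 in T, and 0.583 in I, 0.588 in K, 0.339 in L and 0.54 in P. Sele, E-selectin of activated endothelium, stood at 0.7 in E and 0.66 in T, and 0.715 in I, 0.657 in K, 0.419 in L and 0.679 in P. At both the clone L level lay below the other 5, which lay within 0.0478 of each other at Rab25. The paired microRNA genes Mir181a-1 and Mir181b-1 on chromosome 1 had a level in L of 0.606 each, against 0.776 to 0.842 in the other clones. Their 5p products share the seed ACAUUCA.

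Rgs1 and Rgs13, regulators of G protein signalling found mainly in lymphoid cells, lie side by side on chromosome 1 and were low in L as well. Rgs1 stood at 0.842 in E and 0.77 in T, and 0.857 in I, 0.822 in K, 0.561 in L and 0.905 in P. Rgs13 stood at 0.803 in E and 0.674 in T, and 0.745 in I, 0.733 in K, 0.458 in L and 0.77 in P. The X-linked germline antigen gene Magea1 had the widest such gap, 0.394, and stood at 0.789 in E and 0.941 in T, and 1 in I, 0.875 in K, 0.333 in L and 0.727 in P. L was the low clone at each of these, and the groups overlapped.

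Clone L stood alone high at 32 members, and at 95 with the clones centred. The 32 included a CpG-rich promoter printed above. Nr4a1, an immediate early nuclear receptor, stood at 0.279 in E and 0.204 in T, and 0.328 in I, 0.196 in K, 0.644 in L and 0.261 in P. Trpm6, a magnesium channel, stood at 0.219 in E and 0.234 in T, and 0.261 in I, 0.23 in K, 0.668 in L and 0.424 in P. L exceeded the other 5 clones at both, by a gap of 0.315 at Nr4a1 and 0.244 at Trpm6. The neighbouring histone genes Hist1h2bf and Hist1h2ad, of core histones, were highest in L too, at 0.401 and 0.374, with the other clones at 0.093 to 0.273.

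Clone T stood alone low at 118 members, among them regulators of transcription and of Wnt signalling. Vgll3, a cofactor of TEAD transcription factors, stood at 0.424 in E and 0.0816 in T, and 0.748 in I, 0.613 in K, 0.452 in L and 0.689 in P. Dlc1, known as a tumour suppressor, stood at 0.62 in E and 0.26 in T, and 0.655 in I, 0.742 in K, 0.715 in L and 0.589 in P. Sfrp1, a secreted antagonist of Wnt ligands, stood at 0.558 in E and 0.238 in T, and 0.588 in I, 0.609 in K, 0.587 in L and 0.462 in P. T was the low clone by 0.329 at Dlc1 and 0.224 at Sfrp1, both on chromosome 8, while the other intravasating clone E lay among the non-intravasating clones at these. At Vgll3, E was the next lowest, so that the groups did not overlap there.

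Imprinted genes, which are methylated on the copy from 1 parent, gave 5 members of 44 measured promoters, and T was low at a pair of them. Gnas, the stimulatory G protein subunit, stood at 0.631 in E and 0.419 in T, and 0.673 in I, 0.63 in K, 0.671 in L and 0.718 in P. Mcts2, an imprinted retrogene on chromosome 2, stood at 0.608 in E and 0.438 in T, and 0.68 in I, 0.591 in K, 0.621 in L and 0.655 in P. Igf2r, the receptor that clears insulin-like growth factor 2, split another way and stood at 0.649 in E and 0.668 in T, and 0.799 in I, 0.373 in K, 0.657 in L and 0.306 in P. K and P were low at Igf2r, with a gap of 0.276 to the other 4 clones. Impact and Snrpn were the other imprinted members, with P highest at Impact (0.936, the others 0.712 to 0.804) and lowest at Snrpn (0.295, the others 0.371 to 0.5).

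Members with T alone low had more CpG than those with L alone low. The median was 6.5 CpG in the window for T low (73 promoters with a window) and 3 for L low (173). With L and T low together it was 1 (45). At least 10 CpG were present at 34.2% of the T-low, 8.67% of the L-low and 2.22% of the members low in both. Sox12, a SOX-family transcription factor, was the most CpG-rich of the T-low members, with 47 CpG and levels of 0.232 in E and 0.0134 in T, and 0.331 in I, 0.219 in K, 0.362 in L and 0.162 in P. T was close to unmethylated there and the other 5 clones were at 0.162 to 0.362.

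L and T were low together at 69 members. Skint10, of a family expressed in skin and thymus epithelium, stood at 0.81 in E and 0.3 in T, and 0.694 in I, 0.811 in K, 0.333 in L and 0.61 in P. Klri1, a killer cell lectin-like receptor, stood at 0.779 in E and 0.446 in T, and 0.791 in I, 0.865 in K, 0.51 in L and 0.678 in P. L and T fell below the other 4 at both, so that each group had a low clone. The reverse was found at Bmp7, a bone morphogenetic protein, which stood at 0.154 in E and 0.379 in T, and 0.0304 in I, 0.146 in K, 0.432 in L and 0.0942 in P, with L and T the high pair.

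In the deposited levels, E, I, K and P stood alone more often high than low. I alone high, E alone high, K alone high and P alone high were found at 80, 57, 52 and 48 members, while each of these clones was alone low at 15 or fewer. With the clones centred the counts lay closer together: 38 high and 31 low for I, 46 and 24 for E, 53 and 30 for K, and 40 and 15 for P. Zfp600, a zinc finger gene, had the widest gap for I, with 0.25 in E and 0.182 in T, and 0.75 in I, 0.278 in K, 0.25 in L and 0.2 in P. Mageb5, an X-linked germline antigen gene, was highest in K and stood at 0.5 in E and 0.1 in T, and 0.333 in I, 0.875 in K, 0.478 in L and 0.429 in P. For E, Klra1, a receptor of the Ly49 group, stood at 0.444 in E and 0.195 in T, and 0.184 in I, 0.225 in K, 0.161 in L and 0.143 in P. Each of these was a single high clone, with the rest of both groups mixed below it. Levels such as 0.25, 0.2 and 0.75 at Zfp600 or 0.5, 0.1 and 0.875 at Mageb5 can come from few reads or CpG. The levels of Magea1 above and of Mir1912 and Zscan4f below are alike in this. The counts behind them were not given, and their part in these gaps was not tested.

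The few members with P or E alone low included a microRNA gene. The microRNA gene Mir1912 stood at 0.44 in E and 0.294 in T, and 0.364 in I, 0.286 in K, 0.3 in L and 0 in P, with P listed at 0. Gbp6, an interferon-induced guanylate-binding protein, stood at 0.184 in E and 0.388 in T, and 0.466 in I, 0.381 in K, 0.444 in L and 0.368 in P, with E lowest. Of E-high members, 14 of 57 lay on chromosome 6, beside 86 of all 1016 members with a clear gap. These 14 included 4 Klr genes, the 3 taste receptors Tas2r123, Tas2r138 and Tas2r144, and the neighbouring Try10 and Prss3. Neighbouring genes among them are not independent measurements. The genes of this chromosome 6 group were picked out after their values were seen.

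Some members split 3 clones from 3, at 69 of the 1016. Wnt7b, a Wnt ligand, stood at 0.907 in E and 0.882 in T, and 0.922 in I, 0.643 in K, 0.418 in L and 0.544 in P. Zscan4f, a gene of the early embryo and of embryonic stem cells, stood at 0.154 in E and 0.667 in T, and 0 in I, 0.857 in K, 0.143 in L and 0.833 in P. The high clones were E, I and T at Wnt7b and K, P and T at Zscan4f, so neither split followed the labels. E and T stood together against the other 4 at 10 of the 1016 members with a clear gap (0.984%), 6 times low and 4 times high. Among all promoters outside the receptor families with such a gap there were 18 (1.18%), which include these 10.

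**Figure D3:**
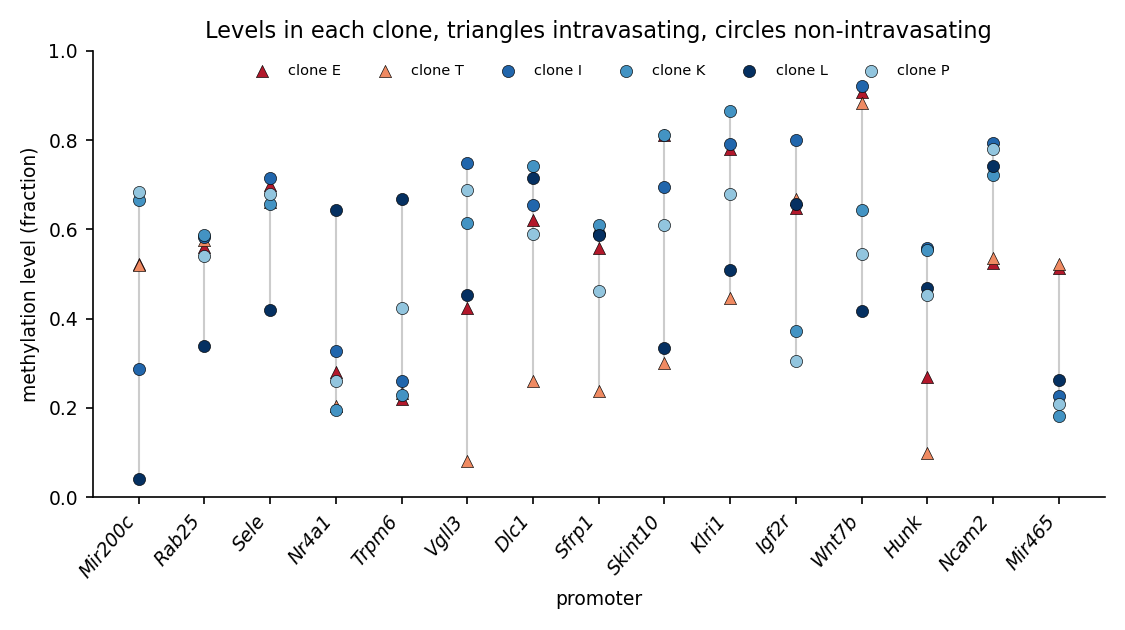
Methylation level (fraction, y axis) of 15 members described in the text (x axis), with 1 point per clone, triangles for the intravasating clones E and T and circles for I, K, L and P. A single clone lies apart at several of them, such as L at Mir200c (0.0409) and T at Vgll3 (0.0816), and E and T lie together apart from the rest at Hunk, Ncam2 and Mir465.

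Gene families recurred unevenly. Families were assigned by symbol, so that 948 of the 1640 members fell in 71 of 73 listed families and 692 in none. Neighbouring and related genes share sequence, and rows of a family are not independent measurements. Among families with at least 8 members, killer cell lectin-like receptors had the highest share, with 20 of 32 promoter rows (62.5%), against 7.97% of all promoters outside the excluded families. At the other end none of 177 ribosomal protein promoters was a member, and their median range was 0.0522. Transmembrane (Tmem) genes gave 4 of 210 and potassium channels 3 of 103.

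**Figure D4:**
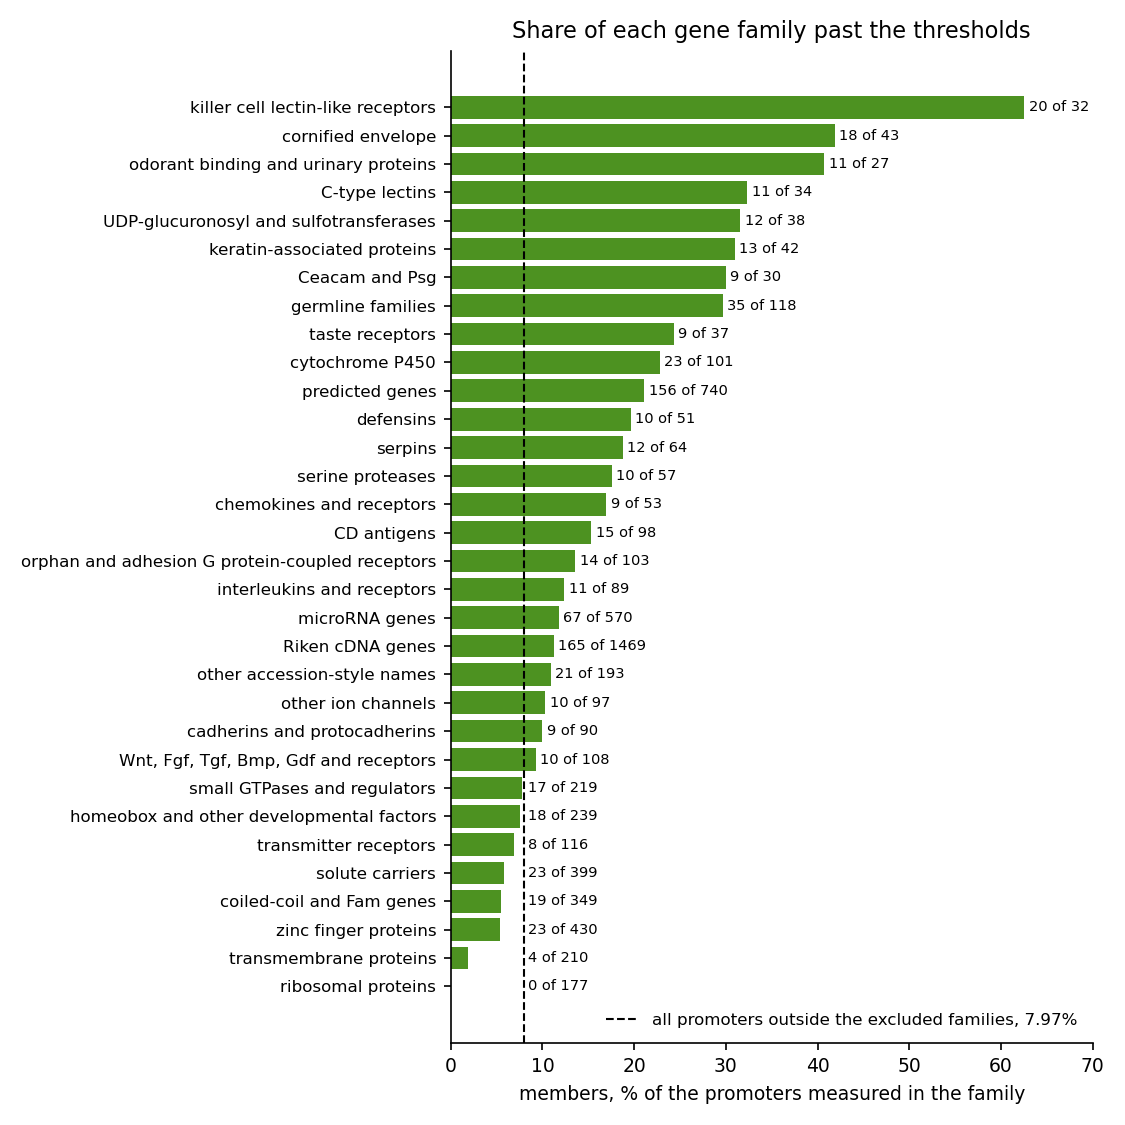
Share of the promoters of a gene family that are members (x axis, percent), for families with at least 8 members or at least 170 measured promoters, with the counts beside each bar. The dashed line marks 7.97% over all promoters outside the excluded families, and the shares run from 0% for ribosomal proteins to 62.5% for killer cell lectin-like receptors.

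The killer cell lectin-like receptors, inhibitory and activating receptors of natural killer cells, sit in 1 cluster on chromosome 6, and their clones differed from gene to gene. Over the 20 rows, the mean level was 0.571 in E, 0.414 in T, 0.480 in I, 0.494 in K, 0.382 in L and 0.521 in P. The 17 rows with a clear gap followed 10 different splits. L was lowest at 10 rows and T at 6. Klra17 was highest in E at 0.549, with the others at 0.156 to 0.349, whereas Klra2 was highest in K at 0.582, with the others at 0.259 to 0.443. Klra12 and Klra13-ps carried identical levels and cannot be told apart here. C-type lectins, some of which share that cluster, gave 11 of 34.

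Genes of the cornified envelope, the protein coat of skin cells, came next with 18 of 43, all in the chromosome 3 cluster. Late cornified envelope (Lce) genes gave 11 of 17 and small proline-rich (Sprr) genes 7 of 13. The S100 genes, counted in the same 43, gave no member. T was lowest at 9 of the 18 and L at 4. Lce3f, whose printed window has no CpG, stood at 0.444 in E and 0.264 in T, and 0.642 in I, 0.581 in K, 0.484 in L and 0.622 in P. Its neighbour Lce3a stood at 0.583 in E and 0.37 in T, and 0.548 in I, 0.554 in K, 0.393 in L and 0.533 in P. T was lowest at both, alone at Lce3f and with L at Lce3a. Keratin-associated proteins of hair gave 13 of 42, while the keratins gave 4 of 51.

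Families of sensing, defence and metabolism also recurred. Of small families with 6 measured promoters, the Skint genes, the formyl peptide receptors and the desmogleins (Dsg) each gave 4. The group of urinary, odorant-binding and lipocalin symbols (Mup, Obp, Lcn, Esp) gave 11 of 27, with Lcn genes giving 5 of 9. Taste receptors gave 9 of 37 and trace amine receptors 4 of 15. Defensins, antimicrobial peptides of epithelia, gave 10 of 51, with T highest and alone at Defa5 (0.444, the others 0.0667 to 0.231). Among enzymes of foreign compound metabolism, UDP-glucuronosyl and sulfotransferases gave 12 of 38 and cytochrome P450 genes 23 of 101. Pregnancy-specific glycoproteins (Psg), hormones of the placenta, gave 7 of 13, with K highest at Psg29 and Psg26, at 0.667 and 0.464.

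Several large families had shares near or under the background. Zinc finger proteins gave 23 of 430 (5.35%), homeobox and other developmental factors 18 of 239 (7.53%), solute carriers 23 of 399 (5.76%) and small GTPases and their regulators 17 of 219 (7.76%). Smaller groups by symbol were listed only where they had at least 4 members, which favours large shares. Among these, Zscan genes gave 4 of 15, Rgs genes 6 of 24 and Sox genes 5 of 21. Rgs1, Rgs2, Rgs13 and Rgs18 lie in 1 run of neighbours on chromosome 1. The Dsg, Lcn and Psg counts above come from the same listing. Among the gene lists taken for this tissue, the adhesion, protease and coagulation list gave 8 of 36, the leukocyte list 4 of 24, the epithelial list 3 of 37, the tumour suppressor list 3 of 37, the mesenchymal list 2 of 32, the fibroblast list 2 of 13, and the endothelial, mammary and germline defence lists 1 each of 28, 32 and 24. The DNA methylation machinery (25 promoters) and the housekeeping list (20) gave none. Serpine2, a protease inhibitor of the serpin family, stood at 0.449 in E and 0.229 in T, and 0.611 in I, 0.309 in K, 0.489 in L and 0.323 in P, with T, K and P low and the groups overlapping.

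Epithelial marker promoters had low mean levels over the 6 clones at Cdh1 (0.0856), Cldn4 (0.0978), Krt8 (0.139) and Epcam (0.172). The means were higher at Krt18 (0.258) and Cldn7 (0.287). Leukocyte markers had means from 0.641 at Cd3e to 0.790 at Ptprc. Endothelial markers had means of 0.696 at Cdh5, 0.806 at Kdr and 0.860 at Pecam1. Fibroblast markers were spread more widely, with 0.310 at Pdgfra, 0.397 at Col1a1, 0.514 at Col3a1 and 0.709 at Dcn. Cdh1, Cldn4, Krt8, Epcam, Ptprc, Pecam1 and Kdr were not members, while Col3a1 was.

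Chromosome X had a larger share of members than any autosome. Of 909 promoters on X outside the receptor families, 236 (26.0%) were members, against 1391 of 19557 (7.11%) on autosomes. The highest autosomal share was 11.1%, on chromosome 6, and the lowest 3.45%, on chromosome 11. The listed germline families gave 23 of these 236 members. Among them, Magea gave 5 of 8 promoters, and Rhox 5 of 26 (19.2%), a share under that of X as a whole. MicroRNA genes gave 25 of 66 on X and 42 of 502 on autosomes. Slx, a germline gene, stood at 0.391 in E and 0.308 in T, and 0.382 in I, 0.474 in K, 0.0392 in L and 0.579 in P, with L lowest. Of the 174 X members with a clear gap, 56 had L, T or both low (32.2%), against 402 of 837 (48.0%) on autosomes.

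The X-linked microRNA cluster held the longest run of neighbouring members, 8 genes from Mir463 to 4933436I01Rik, and no single split ran through it. Mir881 stood at 0.569 in E and 0.578 in T, and 0.842 in I, 0.95 in K, 0.476 in L and 0.886 in P. Mir880 stood at 0.417 in E and 0.143 in T, and 0.4 in I, 0.25 in K, 0.133 in L and 0.636 in P. Mir743, a little outside the run, stood at 0.55 in E and 0.364 in T, and 0.25 in I, 0.909 in K, 0.583 in L and 0.353 in P. E, L and T were low at Mir881, P was high at Mir880 and K at Mir743. The miR-344 genes on chromosome 7, 5 of whose products share the seed shown above, differed among themselves in the same way: K was highest at Mir344-2 (0.656, the others 0.261 to 0.431), L was lowest at Mir344b (0.0745, the others 0.212 to 0.328) and E and T were highest at Mir344f (0.432 and 0.513).

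Members lay next to each other more often than other genes did. In the order of RefSeq gene starts among measured genes, 579 of 1594 placed member genes (36.3%) had a member on at least 1 side, against 12.99% of other genes outside the receptor families. On X the share was 59.7% and on autosomes 32.5%. Runs of at least 3 neighbouring members numbered 76 and held 281 genes. Other long runs were Kprp to Lce3f on chromosome 3 (7 genes), Snora35 to Il13ra2 on X (7 genes) and Rgs2 to Fam5c on chromosome 1 (5 genes). Neighbours did not always share a profile: over 353 adjacent pairs the median Pearson r across the 6 clones was 0.438, 161 pairs were above 0.5 and 63 below 0. Such pairs can share part of a measured region.

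Members had fewer CpG near the gene start than other promoters of the same mean band. Among genes with a single row and a RefSeq window, the median was 3 CpG for 1047 members and 9 for 4723 promoters in the same mean band with a smaller range. Of the members, 42.2% had at most 2 CpG, against 14.7% of the latter. The share of promoters in the band that were members fell from 52.1% at 0 CpG to 8.37% at 10 or more. Across those 5770 promoters, range and CpG number had a Pearson r of -0.264 and a Spearman correlation of -0.385, a description across genes that are not independent. The 234 promoters of the band with 0 CpG in the window still had levels, so their measured regions reach beyond it. The window count is therefore not the number of CpG measured. A region with few CpG has fewer cytosines behind its level. The number of reads and CpG behind each deposited level was not given, and its part in the range was not tested.

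**Figure D5:**
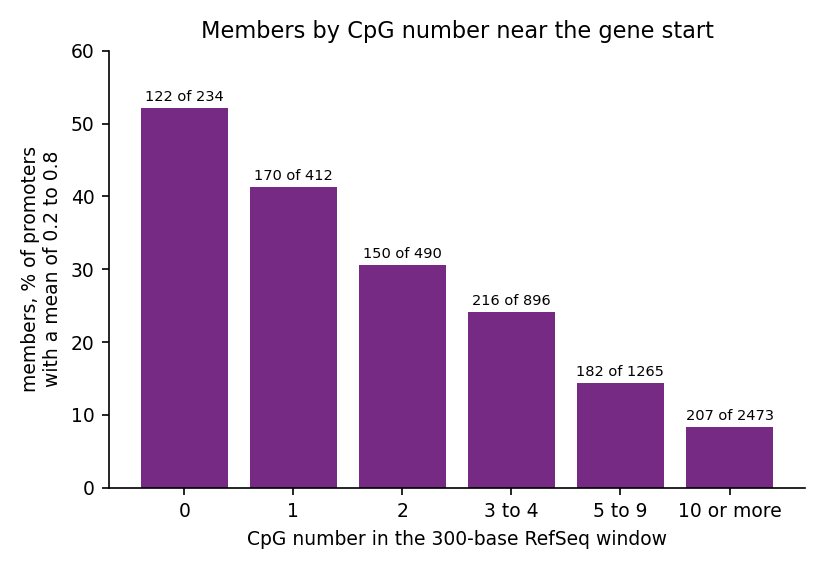
Share of promoters with a mean level of 0.2 to 0.8 that are members (y axis, percent) by the number of CpG in the 300-base RefSeq window (x axis), with the counts over each bar. The share is 52.1% at 0 CpG and 8.37% at 10 or more.

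CpG-rich members existed nevertheless, 207 with at least 10 CpG. By the widest gap, autosomal examples beyond Vgll3, Nr4a1 and Igf2r, chosen after their values were seen, were Atp8b5, Dact2, Hexa and Hhip. Dact2, a regulator of Wnt and TGF-beta signalling, stood at 0.48 in E and 0.212 in T, and 0.497 in I, 0.23 in K, 0.165 in L and 0.182 in P. Hexa, a lysosomal hexosaminidase subunit, stood at 0.66 in E and 0.362 in T, and 0.66 in I, 0.73 in K, 0.59 in L and 0.673 in P. E and I were high at Dact2 and T was low at Hexa. Hhip, a Hedgehog-binding protein, was highest in T at 0.778, with the others at 0.449 to 0.584.

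The study's comparison of intravasating with non-intravasating clones asks whether promoter methylation goes with entry into blood vessels, with 2 clones against 4. With limma across all 21965 promoters, 2 were called at an adjusted p under 0.05 (0.00911%), and 0 of the 1640 members. At an unadjusted p under 0.05 there were 120 members (7.32%), against 3.93% of all promoters. Of these, 29 were higher in the intravasating clones (1.68% of all promoters were) and 91 lower (2.26% of all promoters). That order turned without clone T, where 109 members had such a p and 74 of them were higher. With the clones centred, 219 members had such a p, of which 78 were higher, beside 836 of all 21965 promoters. The groups did not overlap at 143 members (8.72%), against 11.2% of all promoters. The intravasating clones were higher at 39 of them and lower at 104, beside 4.31% and 6.89% of all promoters. This order too turned without T, with 341 higher and 155 lower. It turned over all promoters as well, with 20.6% higher and 13.4% lower. Centring gave 78 higher and 127 lower, beside 4.44% and 5.30% of all promoters. The members were kept for a wide range over the same 6 clones, and these shares describe them. A gap of at least 0.1 between the groups was present at 11 members, against 0.127% of all promoters. The 104 lower members were 6.34% of all members. Their largest counts were 12 of the 119 members on chromosome 2, 10 of 62 on chromosome 16 and 10 of 236 on X, where the share was under that figure. Chromosomes 18 (6 of 56) and 15 (6 of 57) had larger shares than chromosome 2. Shares over all promoters of each chromosome were not computed.

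Mir465 had the widest gap between the groups and was higher in the intravasating clones. It stood at 0.512 in E and 0.522 in T, and 0.227 in I, 0.182 in K, 0.263 in L and 0.208 in P. Levels such as 0.182 in K can come from few reads or CpG. The counts behind them were not given, limma weighted all levels alike, and their part in this gap was not tested. Both intravasating clones exceeded all 4 others, by a gap of 0.249, and the difference of the means was 0.297 (limma, SE 0.0436), with an adjusted p of 0.306. With the clones centred on their medians the adjusted p was 0.0262, and over the alternatives it ran from 0.0262 to 0.688. Spink3, a secreted trypsin inhibitor, stood at 0.443 in E and 0.506 in T, and 0.312 in I, 0.302 in K, 0.267 in L and 0.321 in P, with E and T again highest and an adjusted limma p of 1.00.

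In the other direction, Ncam2 and Hunk on chromosome 16 were lower in the intravasating clones. Ncam2, a neural cell adhesion molecule, stood at 0.524 in E and 0.537 in T, and 0.794 in I, 0.721 in K, 0.742 in L and 0.781 in P. Hunk, a kinase first described in the mammary gland, stood at 0.268 in E and 0.0987 in T, and 0.559 in I, 0.553 in K, 0.468 in L and 0.452 in P. E and T lay below all 4 others by 0.184 at each, with adjusted limma p of 0.337 at Ncam2 and 1.00 at Hunk. Of the 5 widest gaps in this direction 4 were on chromosome 16, with Pla1a and 2510009E07Rik beside these, and the fifth was Mgat1 on chromosome 11. T was lowest at 40.3% of the 62 members on chromosome 16, the highest share of T among the chromosomes, against 28.1% of all members.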

How the data were processed

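Bisulfite-converted genomic DNA was sequenced as 76 nt paired-end reads, per the labels' protocols. The deposited promoter table holds, per the file headers, 1 methylation level per clone for each gene name, as a fraction from 0 to 1. The submitters' processing notes name mm10, bedtools and DESeq with no role. Not given in the sources used here are the aligner, the promoter boundaries and the merging of rounds. No coverage came with the levels, so no coverage minimum or counting interval was possible. The table had 0 unused columns of per-sample values, and the table of hypomethylated regions was not used.

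Of 22110 rows, 145 repeats were dropped. Genes were placed by symbol or synonym in the RefSeq table of GRCm38.p6, which matched 1594 of 1606 member genes, for chromosome and gene order. CpG were counted in RefSeq windows for genes with 1 row. Each clone was 1 replicate, and no label calls the rounds separate cultures, so p-values measure the spread between these clones. For the group comparison, limma 3.58.1 was run under R 4.3.3 with eBayes, a trend on the mean level and Benjamini-Hochberg adjustment over 21965 promoters. The script was tested on simulated data. The design had named a count model only for files with counts, which these are not.

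Named genes were those with the 8 largest ranges, the widest gaps for each clone and for the groups, the largest ranges in each family, all members of the gene lists and the neighbours of the thresholds, from which the text gives a selection. Families rest on symbols alone: Cstf2t, a cleavage stimulation factor, was counted with the cystatins. The members and lists were chosen with earlier results of these data known. Alternatives were other range and mean thresholds, centring, other gaps, autosomes only, a logit scale, no mean trend and leaving out each clone.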

Additional observations from a re-analysis of the deposited data

Results flagged for a closer look

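Among 152 values checked within the 4 non-intravasating clones, 12 (7.89%) had a highest or lowest clone whose distance to the nearest other, relative to the range, was above the 95% critical value of Dixon's test for 4 samples. Apart from the mean over members, the values were those of named genes, some picked because 1 clone stood alone by a wide gap. Members had also been kept for a wide range over the same clones. This choice favours an outlying clone, so the share cannot be set against the 1 in 20 of chance. Clone L was the outlying clone 5 times, I and K 3 times each, and P once.

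The mean over all members was 0.439 in clone L, against 0.529 to 0.547 in I, K and P. Adh6-ps1 stood at 0.4 in L, against 0.7 to 0.727. Fam178b stood at 0.364 in L, against 0.610 to 0.618. Itgax, an integrin of dendritic cells and macrophages, stood at 0.541 in L, against 0.72 to 0.724. Dppa5a, a gene of pluripotent cells, stood at 0.645 in L, against 0.824 to 0.849. L was below the other 3 in each case.

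Clone I was high at Zfp600, with 0.75 against 0.2 to 0.278, and at the predicted gene Gm5797, with 1 against 0.571 to 0.6. It was also high at Mal2, an epithelial transport protein, with 0.515 against 0.423 to 0.438. Clone K was high at Clec4g, a C-type lectin, with 0.592 against 0.355 to 0.366, and at Pcdhb1, a protocadherin, with 0.782 against 0.622 to 0.633. Adam8, a cell surface protease, stood at 0.545 in K, against 0.333 to 0.341. Clone P was low at Sfrp1, with 0.462 against 0.587 to 0.609.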

How the results depend on the processing

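Depth is unknown and 1 level stands for each clone, so the error of a single level cannot be given. No paired analysis was possible because the table carries 1 column per clone and none for the rounds whose numbers the clones share. With 2 clones against 4 and few calls, the group comparison is limited in size, and leaving out E or T leaves 1 intravasating clone, assumed to vary like the others.

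The number of members was 1640, and 3589 at a range of at least 0.15, 370 at 0.3 and from 1013 (without clone L) to 1436 when each clone was left out. Members with L alone low numbered 275, and 51 at a range of at least 0.3, 103 with the clones centred, 19 at a gap of at least 0.2 and 263 to 424 (without T) with a clone left out. For T alone low, 118 members became 41, 69, 21 and 119 to 227 (without L) under these settings, and for I alone high, 80 became 23, 38, 8 and 79 to 132 (without E). Centring kept 1075 of the 1640 members (65.5%) among 1214. Of 2 promoters called by limma, 0 were left without the mean trend or among promoters with a mean of 0.2 to 0.8. There were 5 calls with the clones centred, and 0 (without L) to 4 (without E) when each clone was left out. Members called numbered 0 throughout, also when each clone was left out, apart from 1 with the clones centred, Mir465. Non-overlapping members numbered 143, then 11 and 1 at gaps of at least 0.1 and 0.2. Chosen after seeing the data, leaving out each clone gave 213 (without P) to 587 (without E), 496 without T, 320 without L, 262 without I and 218 without K, and centring gave 205. Over all promoters the non-overlapping share, 11.2% with the 6 clones, rose as well when a clone was left out. It was 37.13% without E, 33.95% without T, 24.98% without L, 17.45% without I, 15.93% without K and 15.88% without P. The rises on leaving out a clone were therefore not particular to the members. Centring gave 9.74% of all promoters. The median CpG number was 2 for members and 5 for other promoters of the mean band in the 150 bases before the start, against 3 and 9. With 2 genes on either side, 51.2% of members and 23.0% of other genes had a member neighbour. The other 58 values of these main counts stayed within 1.5 times. For the remaining splits, the families, chromosome X and the named genes, 221 values stayed on the same side or within 1.5 times and 64 counts did not, 28 of them higher and 36 lower.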

Other observations

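Of 157 member genes with 2 or more rows, 139 had a row that was no member, and these 206 rows included 48 with a mean under 0.2 and 44 with a mean over 0.8. Their median range was 0.0965, against 0.0752 in rows of other genes with 2 or more rows, and among rows with a mean of 0.2 to 0.8 it was 0.132 against 0.119. The first were chosen as rows that are no members, so a smaller range than in members is no result. Klra7 and Klrk1, receptors of natural killer cells, were members in 2 rows each. At Klrk1, 1 row was highest in K (0.582, the other clones 0.309 to 0.394) and the other was lowest in T (0.347, the other clones 0.563 to 0.736).

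Of 42 promoters of the major histocompatibility complex, which presents peptides to T cells, 1 was a member, H2-Q2, with a range of 0.561. Its levels were 0.172 in E, 0.395 in T, 0.733 in I, 0.486 in K, 0.484 in L and 0.216 in P. Clone I was highest and E lowest, so that each end was held by another group. H2-Q2 was picked out after its values were seen.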
